A study of Mus musculus with 4 samples.

Results

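The integrin genes of T cells are 10 genes that encode the adhesion receptors found on T cells: Itgal, Itgb2, Itga4, Itgb1, Itgb7, Itgae, Itga1, Itga2, Itga6 and Itgav. They were chosen by name, not by a measured value, and are 10 of the 21951 protein-coding genes of the annotation used. DNase-seq, which maps accessible chromatin by sequencing the ends that DNase I cuts, was made from T cells labelled as naive, resting, alpha-beta and CD8-positive. They were primary cells of virgin female B6CASTF1/J mice aged 2 months. B6CASTF1/J mice are a cross of C57BL/6J and the wild-derived strain CAST/EiJ, and no treatment, transgene or genotype beyond the cross is labelled. There is 1 group of 4 libraries, labelled biological replicates 1 to 4, so genes, sites and libraries are compared within it. The libraries are separate biosamples that share 1 donor identifier and are not said to come from separate animals, so a p-value over libraries measures only the spread between these libraries.

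Integrins are receptors made of 1 alpha and 1 beta chain that pair at the cell surface and bind ligands on other cells or in the extracellular matrix. Itgal pairs with Itgb2 to form LFA-1, which binds ICAM proteins and holds T cells to antigen-presenting cells and vessel walls. Itga4 pairs with Itgb1 to bind VCAM-1, or with Itgb7 to bind MAdCAM-1 in the gut, while Itgae pairs with Itgb7 to bind E-cadherin on epithelium. Itga1 and Itga2 pair with Itgb1 as collagen receptors, Itga6 pairs with Itgb1 as a laminin receptor, and Itgav pairs with several beta chains to bind proteins such as vitronectin. DNase-seq reports whether the regulatory DNA of these genes is accessible, not how much protein is made. In bulk cells, a more open site cannot be told apart from a site that is open in more of the cells.

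A site is a stretch covered by overlapping peaks of the libraries, and a consensus site is one with a peak in at least 3 of the 4. A locus runs from 25 kb before the gene body to 25 kb after it, a promoter site lies within 1 kb of any annotated start, and the remaining sites are called distal. The deposited peak height is a signal, and it is given here relative to the median peak, in the same library, of the 17545 sites shared by all 4. Shared sites are higher than most, so a relative height of 1 is above a typical peak: of the 52572 sites called in both replicates 1 and 2, 34483 had a mean relative height below 0.5 in them.

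The libraries differed in depth and in the number of peaks, and the part of this in each result below was not tested. The longer peak lists held 69413, 70552, 51121 and 20647 peaks, and the smallest step between heights implied 109, 62.9, 91.5 and 24.3 M tags in replicates 1 to 4. Peak number did not follow the implied tags throughout. Replicate 3 had more tags than replicate 2 but fewer peaks, and a lower median at the shared sites (291 against 525 tags). The lowest peak of the library labelled replicate 4 had a relative height of 0.158, against 0.0178, 0.0152 and 0.0241 in the other libraries. Cd8a, the alpha chain of the CD8 coreceptor, had a promoter peak in replicates 1 and 2 (0.498 and 0.366) and none in the libraries labelled replicates 3 and 4, whereas Cd8b1, its beta chain, was called in all 4. Of 11 T cell markers (Cd8a, Cd8b1 and 9 genes that helper T cells also use) 11, 11, 9 and 4 had a promoter peak in replicates 1 to 4, with summed relative heights of 8.88, 7.91, 6.32 and 3.26. Of 8 B cell markers 6, 5, 7 and 5 were called, with summed heights of 2.02, 2.53, 4.08 and 4.56. Of 4 helper T cell markers 3 were called in each library, with sums of 2.59, 3.14, 3.59 and 3.77, and Cd4 in none. Summed heights of 8 myeloid markers were 1.04, 0.77, 0.852 and 0, and of 4 NK cell markers 0.518, 0.375, 0.354 and 0. Those of 6 platelet and red cell markers were 1.78, 1.75, 1.44 and 1.14, with 3, 3, 1 and 1 of the 6 called. Nearly all of that sum was Itga2b, at 1.54, 1.57, 1.44 and 1.14. Whether the libraries labelled replicates 3 and 4 hold the labelled cells could not be settled from these files, so each mean over 4 libraries carries that doubt, and the values of every library are given. The part of cell make-up or depth in the results was not tested.

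The accessible sites of the integrin loci can be read as sequence. For 8 members, the stretch of 120 bases round the best-shared footprint of the highest distal site is shown, because these were each gene's highest distal sites among those called in the most libraries. A footprint is a short stretch inside an accessible site that DNase I cut less than its surroundings. Letters are those of the C57BL/6J reference (GRCm38), so an allele of the other parent strain may differ. They run 5′ to 3′ on the strand of the integrin gene, and capitals mark bases within footprints of at least 2 libraries. Each name gives the distance in bases of the site's centre from the annotated start at the main promoter site, with positive values into the gene.
Itgb2 +36619: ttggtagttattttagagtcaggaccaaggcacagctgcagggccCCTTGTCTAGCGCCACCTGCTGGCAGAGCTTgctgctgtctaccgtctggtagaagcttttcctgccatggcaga
Itga4 +10405: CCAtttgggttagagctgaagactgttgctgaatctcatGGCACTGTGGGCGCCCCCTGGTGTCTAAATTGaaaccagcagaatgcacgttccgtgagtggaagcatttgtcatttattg
Itgb1 +23714: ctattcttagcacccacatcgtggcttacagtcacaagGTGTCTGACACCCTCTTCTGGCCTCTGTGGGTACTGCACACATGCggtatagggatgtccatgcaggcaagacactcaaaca
Itgb7 -7447: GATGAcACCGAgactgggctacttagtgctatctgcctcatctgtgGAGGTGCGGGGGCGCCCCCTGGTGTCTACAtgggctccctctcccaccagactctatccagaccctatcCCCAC
Itgae +4018: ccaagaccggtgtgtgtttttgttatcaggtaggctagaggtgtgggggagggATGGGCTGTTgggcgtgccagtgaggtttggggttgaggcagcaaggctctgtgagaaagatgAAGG
Itga1 +137503: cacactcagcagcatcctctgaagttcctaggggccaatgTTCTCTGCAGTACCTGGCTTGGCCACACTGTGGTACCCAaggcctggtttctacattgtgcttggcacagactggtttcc
Itga2 +86129: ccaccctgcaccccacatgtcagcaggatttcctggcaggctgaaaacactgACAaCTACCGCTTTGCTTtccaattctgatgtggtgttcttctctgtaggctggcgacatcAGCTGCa
Itga6 +25943: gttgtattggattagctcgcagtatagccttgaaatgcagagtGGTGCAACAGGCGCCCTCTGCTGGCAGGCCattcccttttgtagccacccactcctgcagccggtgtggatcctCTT
The windows at Itga4 (chr2:79265777-79265896), Itgb1 (chr8:128709420-128709539), Itgae (chr11:73094335-73094454), Itga1 (chr13:114964413-114964532) and Itga6 (chr2:71812844-71812963) lie in introns of these genes. The Itga2 window (chr13:114845919-114846038) overlaps an exon of Itga2, the Itgb7 window (chr15:102239319-102239438) an exon of the neighbouring gene Rarg, and the Itgb2 window (chr10:77566808-77566927) is intergenic, past the end of Itgb2. The footprints of the Itga6 and Itgb2 windows each hold a match to the CTCF motif, at positions 56 to 67 and 57 to 68 counted from the 5′ end, all in capitals. CTCF is a DNA-binding protein that holds chromatin loops and boundaries. The Itga4 and Itgb7 windows share a run of 19 letters, GGGCGCCCCCTGGTGTCTA, which lies in the capitals of both. Of all 41228 consensus sites, these 2 were the only ones to hold this run on either strand. It was the longest run shared by any 2 of the printed sites, so it was picked from these letters. Both sites also match the CTCF motif with up to 1 mismatch, as did 41.5% of all distal consensus sites. The Itga1 window holds the RUNX motif TGTGGT at positions 69 to 74, all in capitals. RUNX factors are transcription factors of the T cell lineage.

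Of the 10 genes, 9 had a consensus promoter site, against 55.1% of all protein-coding genes, and 7 had a promoter peak in all 4 libraries (45.9% of all genes). The gene without one was Itga1, which had no promoter peak in any library, as had 39.2% of all genes. By library, 9, 9, 9 and 7 members had a promoter peak in replicates 1 to 4, against 58.3%, 58.5%, 56.7% and 46.2% of all genes. The members missing from replicate 4 were Itgb7 and Itgae.

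**Figure D1:**
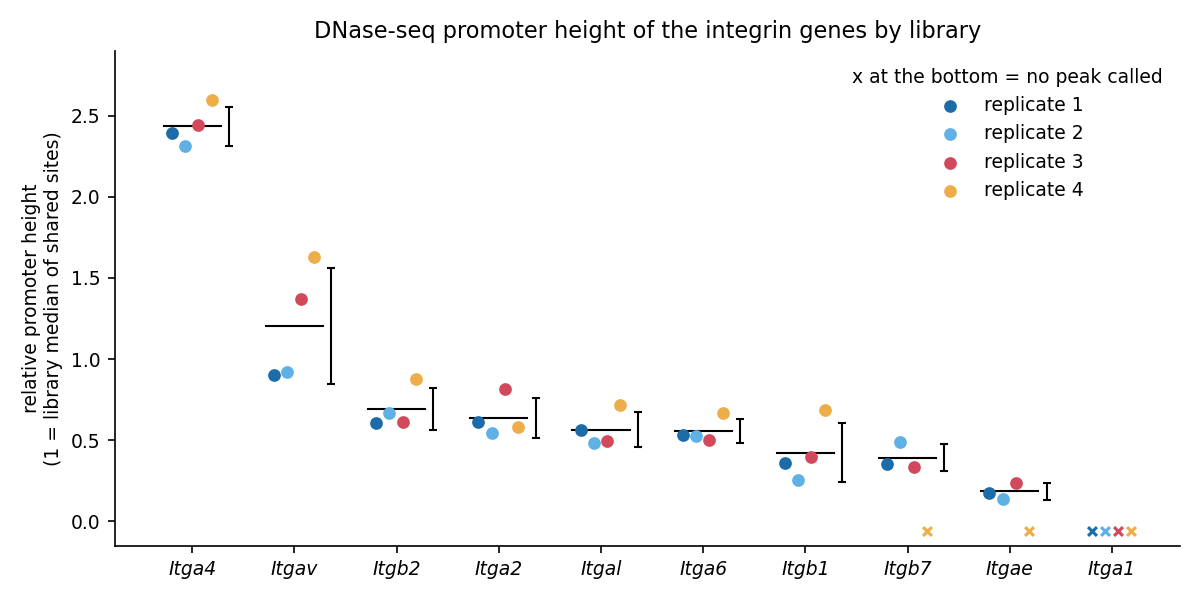
Relative promoter height (y axis, no unit, linear) of each integrin gene in the 4 libraries (points, colours by replicate), with the mean over the libraries that called it (line) and its SD (bar at the right), and crosses where no peak was called. Itga4 stood above the other genes in every library, between 2.31 and 2.60, and Itga1 was called in none.

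The LFA-1 genes had promoters below the median of the sites shared by all 4 libraries, in each library. As a mean over the libraries, they stood above the median of all peaks. Over that median in each library, the mean was 1.78 ± 0.770 (SD, n = 4) for Itgal and 2.20 ± 0.998 for Itgb2. These means do not place every single library above the median of all peaks. Itgal (ENSMUSG00000030830.18, chr7:127296260-127335138) measured 0.564, 0.480, 0.495 and 0.719 at the promoter in replicates 1 to 4, with a mean of 0.565 ± 0.109 (SD, n = 4). That mean stood at percentile 8.96 of the 10081 genes called in all 4 libraries. The replicate 2 value came from a second site at an inner start, while the site at the main start measured 0.448 there. Itgb2 (ENSMUSG00000000290.13, chr10:77530252-77565708), the shared beta chain of leukocyte integrins, reached 0.604, 0.670, 0.612 and 0.877 (0.691 ± 0.128), at percentile 13.9. The ranges of the pair overlapped.

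The site at the inner start of Itgal was present in some libraries only. It lay 12736 bases into the gene, near the start of the coding transcript Itgal-203, and measured 0.496 and 0.480 in replicates 1 and 2, with no peak in replicates 3 and 4. All of its 180 bases were in cut-rate intervals, the deposited intervals of raised cutting, in replicates 1 and 2, and 0 in the libraries labelled replicates 3 and 4. The site (chr7:127308961-127309140) is shown whole because the call at an annotated start of Itgal differed between libraries.
Itgal +12736: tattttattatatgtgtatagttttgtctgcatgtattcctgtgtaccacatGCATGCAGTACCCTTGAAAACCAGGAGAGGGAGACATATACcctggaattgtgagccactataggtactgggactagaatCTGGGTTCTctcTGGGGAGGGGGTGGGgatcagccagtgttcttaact
Its capitals, 65 bases in footprints of at least 2 libraries, include none in footprints of 3.

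Beyond the promoters, the LFA-1 genes differed in their surroundings. Itgb2 had 11 consensus sites, of which 8 were distal. Its highest, at +36619, measured 1.10, 1.13, 1.11 and 1.37, above the promoter in all 4 libraries, by 0.78 ± 0.106 (SD, n = 4) on the log2 scale. A further distal site of Itgb2 called in all 4 libraries, at -13011 (0.631, 0.554, 0.653 and 0.912), held the core ETS motif CAGGAAG under a footprint of at least 2 libraries. ETS factors are a broad family of transcription factors in blood cells. Itgal had 8 consensus sites, 5 of them promoters of neighbours (Sephs2, Gm17511, Gm31897 and Zfp768) and 2 distal. Its highest distal site, at -17804, measured 0.522, 0.743 and 0.309 in replicates 1 to 3, on both sides of the promoter's height, and had no peak in replicate 4.

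Itga4, the alpha chain of the VCAM-1 and MAdCAM-1 receptors, had the highest promoter of the 10. Itga4 (ENSMUSG00000027009.18, chr2:79255426-79333123) measured 2.39, 2.31, 2.44 and 2.60 (2.44 ± 0.12), at percentile 79.3, and none of its values overlapped those of another member. Its promoter site is centred 125 bases before the start (chr2:79255201-79255400) and is shown whole because it was the highest site at any member's own promoter.
Itga4 -125: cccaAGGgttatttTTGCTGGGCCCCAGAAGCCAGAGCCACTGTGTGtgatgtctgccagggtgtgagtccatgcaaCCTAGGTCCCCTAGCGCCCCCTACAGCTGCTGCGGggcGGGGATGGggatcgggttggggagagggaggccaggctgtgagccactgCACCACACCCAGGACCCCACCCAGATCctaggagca
Of its 200 bases, 106 lay in footprints of at least 2 libraries and 85 in footprints of at least 3. It held 5 merged footprints, 3 of them seen in all 4 libraries. The RUNX motif, here as its complement ACCACA, lies at positions 166 to 171 within capitals, and overlaps the KLF/SP motif GGGTGTGG, here as its complement CCACACCC, at positions 167 to 174. A pair of lower sites flanked it, at -615 (0.371, 0.259, 0.399 and 0.368) and +405 (0.282, 0.221, 0.471 and 0.684). The highest distal site of Itga4, in its intron at +10405, measured 1.24, 1.65, 1.08 and 0.86, below the promoter in all 4 libraries by 1.05 ± 0.463 on the log2 scale (log2 of distal over promoter -1.05).

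Itgb1, the common beta chain of the matrix-binding receptors, had the lowest promoter of the 7 members called in all 4 libraries. Itgb1 (ENSMUSG00000025809.15, chr8:128685654-128733200) measured 0.362, 0.253, 0.395 and 0.684 (0.424 ± 0.184), at percentile 4.82. In replicates 1 and 2 alone, rescaled to the sites those 2 libraries share, its mean was 1.00 ± 0.172 (SD, n = 2), below that of Itgb7 at 1.40 ± 0.419, with Itga4 still highest at 7.73 ± 0.428 and Itgav next at 3.00 ± 0.282. Its locus held 3 consensus sites, of which 1 was distal, in the intron at +23714. That site measured 0.947, 1.08, 0.897 and 0.526, above the promoter in replicates 1, 2 and 3 and below it in replicate 4 (mean log2 difference 1.07 ± 1.04, n = 4). Of the central 150 bases of the Itgb1 site, 64.7% are soft-masked as repeats in the reference file, as were at least 50% in 3 of the 37 distal integrin sites and in 7.41% of all distal consensus sites.

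The alpha chains that pair with Itgb1 for collagen and laminin showed unlike promoters. Itga1 (ENSMUSG00000042284.10, chr13:114953096-115101964) had no promoter peak at any of its 6 annotated starts, but its intron site at +137503 was called in all 4 libraries at 1.04, 1.05, 0.856 and 0.684. Itga2 (ENSMUSG00000015533.9, chr13:114833081-114932100), the neighbouring collagen receptor gene, had a promoter peak of 0.613, 0.543, 0.818 and 0.579 (0.638 ± 0.123). The highest site inside Itga1 was the promoter of the gene Pelo, at 1.47, 1.90, 1.96 and 2.26. The distal site of Itga2 at +86129 measured 0.716, 0.509, 0.612 and 0.456, which overlapped its promoter heights.

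Itga6 (ENSMUSG00000027111.15, chr2:71745616-71858416), the laminin receptor chain, measured 0.531, 0.528, 0.502 and 0.667 at its promoter (0.557 ± 0.0744), the smallest SD of the 7. Its promoter site spanned 940 bases and held 16 merged footprints, the most of any of the 69 consensus sites. The annotated 5′ end of the gene model lies upstream of that site and had no peak in any library. A group of distal sites lay in its intron. The highest of them, at +25943, measured 1.26, 2.06, 1.10 and 1.04, above the promoter in all 4 libraries by 1.24 ± 0.548 on the log2 scale. The next, at +27161, measured 0.822, 0.543, 0.625 and 0.825. The promoter of Pdk1, a gene past the end of Itga6, was the highest consensus site at any of the loci, at 3.38, 3.97, 3.10 and 2.75.

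The genes of the beta7 receptors, Itgb7 and Itgae, were called at the promoter in replicates 1, 2 and 3 only, and Itgae was the lowest of the 9 called members in each of these libraries. Itgb7 (ENSMUSG00000001281.10, chr15:102215995-102231944) measured 0.356, 0.488 and 0.337 in replicates 1 to 3 and had no promoter peak in replicate 4. Itgae (ENSMUSG00000005947.11, chr11:73090583-73147446), the CD103 chain, measured 0.176, 0.139 and 0.237 and also had none in replicate 4. Of all sites of replicates 1 and 2 with a mean relative height below 0.5, 11.2% were called in replicate 4, so a missing call there at these heights is common. Both genes had higher distal sites. At Itgb7 the sites at -7447 (0.942, 1.45, 0.935 and 1.47) and +7283 (0.822, 0.918, 1.12 and 1.00) were called in all 4 libraries. The highest distal site of Itgb7 in each library exceeded its promoter by 1.57 ± 0.166 on the log2 scale (n = 3, replicates 1 to 3).

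At Itgae, the highest distal sites were in the first part of the gene, at +4018 (0.571, 0.503 and 0.601), and upstream in the gene Ncbp3, at -18562 (0.707, 0.552 and 0.412). Neither was called in replicate 4. The higher of the pair in each library exceeded the promoter by 1.78 ± 0.379 on the log2 scale (n = 3, replicates 1 to 3). The site at +4018 held 12 merged footprints, none of them seen in 3 libraries. The 1 site of the Itgae locus called in all 4 libraries was the promoter of Haspin, a gene that lies inside Itgae, at 1.80, 1.76, 1.79 and 1.60.

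Itgav (ENSMUSG00000027087.11, chr2:83724397-83806916), the alpha chain of the vitronectin receptors, had the second highest promoter, at 0.902, 0.920, 1.37 and 1.63 (1.21 ± 0.357), percentile 35.1. Its replicates 3 and 4 were both higher than replicates 1 and 2. The same held for Itga4 and Itgb1, that is for 3 of the 7 members called in all 4 libraries, against 37.2% of the 10081 genes called in all 4. Its only distal consensus site, in the intron at +47184, measured 0.371, 0.331 and 0.172 and had no peak in replicate 4. It was lower than the promoter in each of these libraries.

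In the order of mean promoter height, Itga4 exceeded Itgav in 4 of 4 libraries by 1.06 ± 0.363 on the log2 scale, and Itgav exceeded Itgb2 in 4 of 4 by 0.77 ± 0.318. The exact sign-flip permutation test over 4 libraries, two-sided, gave p = 0.13 for each, the smallest it can give, so the design cannot reach 0.05, and the Benjamini-Hochberg value over the 6 neighbour pairs was 0.375. From Itgb2 down through Itga2, Itgal, Itga6 and Itgb1, the ranges of neighbours overlapped, with exact permutation p-values from 0.25 to 1. The order that set these pairs came from the same heights, so the p-values are not those of pairs fixed beforehand. Pairs that are not neighbours in the order were not tested.

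**Figure D2:**
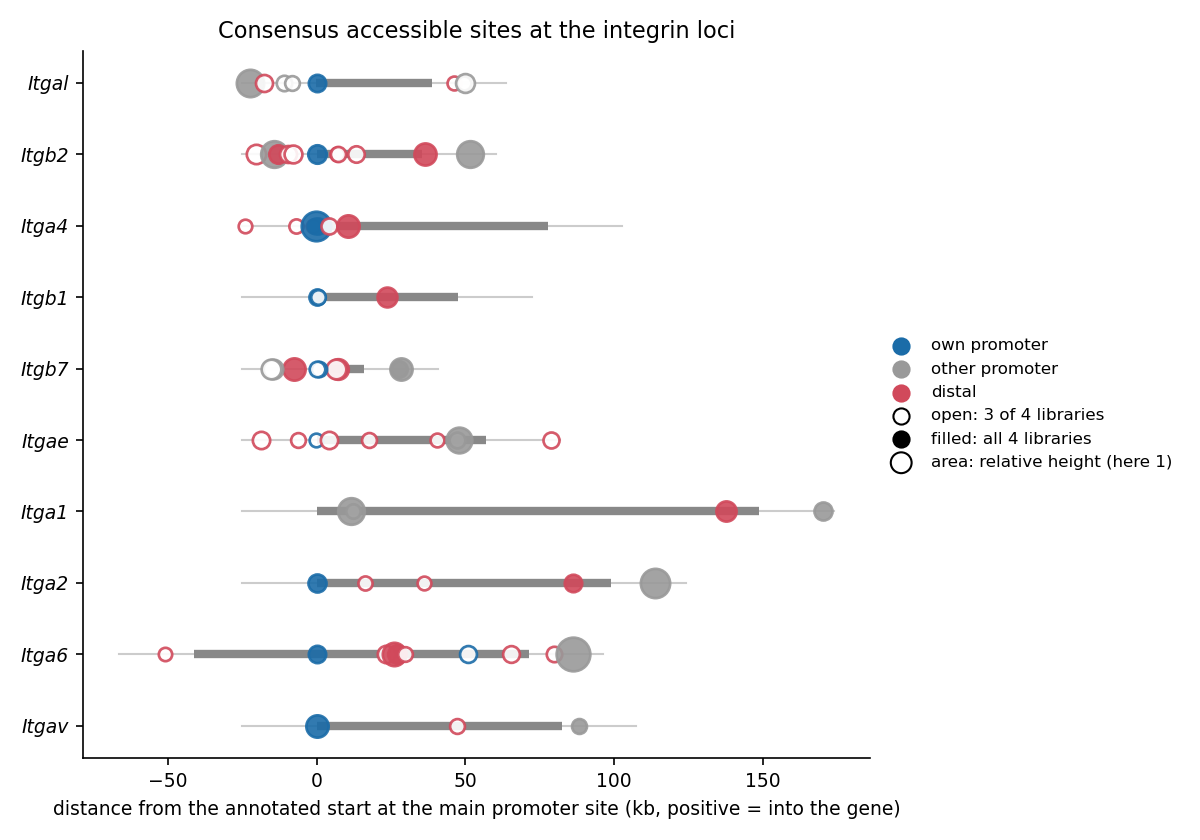
Consensus sites at each integrin locus by distance (x axis, kb) from the annotated start at the main promoter site, with the gene body as a thick line, the 25 kb flanks as thin lines, and circles whose area grows with the mean relative height. Filled circles were called in all 4 libraries and open ones in 3, and the 8 distal sites of Itgb2 stand beside 1 each at Itgb1, Itga1 and Itgav.

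The 10 loci joined into 9 stretches of 1186.6 kb, because those of Itga1 and Itga2 overlap, and held 69 consensus sites. This was 5.81 sites per 100 kb, above the median of 3.36 over the loci of all protein-coding genes and below their upper quartile of 6.72. Of the 69, 14 were at the members' own promoters, 18 at promoters of other genes and 37 distal, which is 53.6% (exact Clopper-Pearson 95% interval 41.2 to 65.7, counting error only), against 53.5% of all consensus sites. Of the distal sites, 20 lay in introns, 11 were intergenic and 6 overlapped exons. With replicates 1 and 2 only, both needed, the loci held 89 sites, 58.4% of them distal, and 9 members kept a promoter site. By gene, the number of consensus sites ran from 3 at Itgb1 and Itgav to 11 at Itgb2.

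The highest distal site exceeded the gene's own promoter in replicates 1, 2 and 3 for 5 members (Itgb2, Itgb1, Itgb7, Itgae and Itga6), of the 9 with a promoter peak, against 21.8% of the 9050 genes with both kinds of site in these libraries. It did not do so in all 3 of these libraries for Itgal, Itga4, Itga2 and Itgav. In the library labelled replicate 4 it exceeded the promoter for Itgb2 and Itga6 and not for Itgb1, Itga4 and Itga2. The height of the promoter enters this comparison, and 5 of the 7 members called in all 4 libraries stood at or below percentile 13.9.

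**Figure D3:**
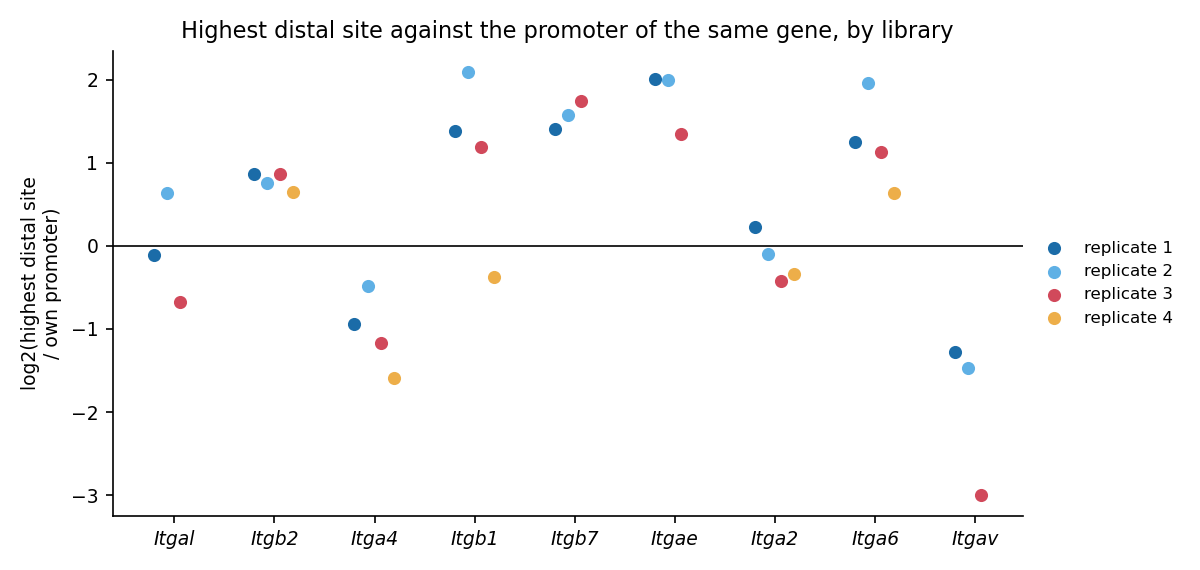
Log2 ratio of the highest distal site over the promoter of the same integrin gene (y axis), in each library that called both (points, colours by replicate), with 0 where they are equal. Itgb2, Itgb7, Itgae and Itga6 lie above 0 in every library with a value, Itgb1 lies below 0 in replicate 4 only, and Itga4 and Itgav lie below 0 throughout.

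The base composition at the start differed among members. The ratio of observed to expected CpG over 500 bases round the start was at least 0.6 for Itgb1 (1.05), Itga6 (0.891) and Itgav (0.822), 3 of the 10 against 52.3% of all protein-coding genes. The other 7 ran from 0.0861 for Itgae to 0.545 for Itga1, and included Itga4 at 0.467. Of all genes below 0.6, 21.8% had a consensus promoter site, against 85.5% of those at or above it. Of the 7 members below 0.6, 6 had one, Itga1 being the exception. Itgb1 had the highest CpG ratio of the 10 and the lowest promoter of the 7 called in all 4 libraries.

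Calls at the loci differed between libraries. Of the 69 consensus sites 69, 68, 69 and 30 had a peak in replicates 1 to 4, and 29 were called in all 4, against 42.6% of all consensus sites. A consensus site needs a peak in at least 3 of the 4, so few calls in replicate 4 force nearly full counts in the others. Of the 37 distal sites 10 were called in all 4, against 26.2% of all distal consensus sites. The loci held 87 sites called in both replicates 1 and 2. In replicate 3, 68 of these were called (78.2%, against 77.5% of all such sites). In replicate 4, 29 were called (33.3%, against 33.9%).

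**Figure D4:**
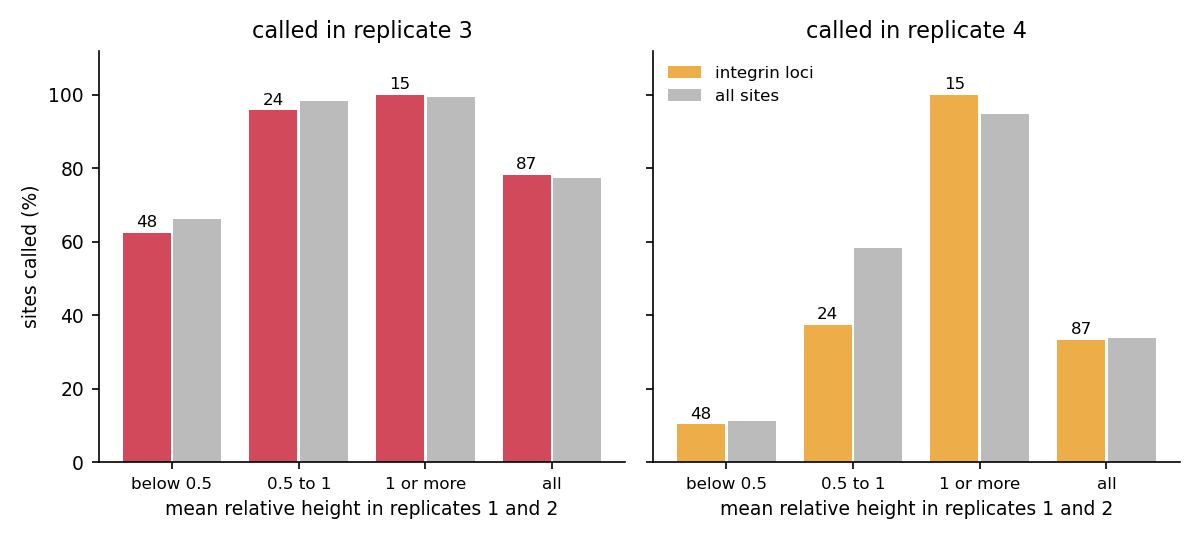
Share (y axis, %) of the sites called in both replicates 1 and 2 that were also called in replicate 3 (left) and replicate 4 (right), by their mean relative height in replicates 1 and 2 (x axis), for the integrin loci (coloured bars, number of sites above) and for all sites (grey bars). The integrin bars stand near the grey ones except in replicate 4 at heights of 0.5 to 1, with 37.5% against 58.3%.

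By height, 30 of 48 integrin sites below 0.5 were called in replicate 3 (all sites 66.2%), 23 of 24 from 0.5 to 1 (98.4%) and 15 of 15 at 1 or more (99.5%). In replicate 4 the counts were 5 of 48, 9 of 24 (all sites 58.3%) and 15 of 15 (94.9%). The integrin sites missing in replicate 3 with a mean of at least 0.3 in replicates 1 and 2 were 3: the inner start of Itgal, a distal site of Itgae at +16978 (0.478 and 0.682) and a distal site of Itga2 at +100429 (0.524 and 0.227). The share of all sites with a mean of at least 0.3 that were missing in replicate 3 was not computed. The count of 3 can therefore not be called high or low. All bases of these 3 sites were in cut-rate intervals in replicates 1 and 2, and 0 bases were in replicates 3 and 4. The Itgae site was the 1 integrin site of height 0.5 to 1 without a call in replicate 3.

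The consensus sites of the loci held 360 merged footprints, with a median width of 10 bases. Of these 192 were seen in 1 library, 76 in 2, 68 in 3 and 24 in all 4, and 66 of the 69 sites held at least 1. Those seen in 3 or more libraries were 92 of 360, against 28.5% at all consensus sites. The site with the most footprints was the gene's own promoter at Itgal (9), Itgb1 (7) and Itga6 (16), and a distal site at Itgae (12) and Itga4 (6). Per library, 234, 215, 202 and 35 footprints fell at these sites in replicates 1 to 4. Cut-rate intervals covered 3.95%, 3.43%, 2.82% and 0.753% of the loci, which was 3.96, 3.84, 3.61 and 2.98 times their share of the genome in the same library. Within the loci, 45.9%, 50.9%, 58.6% and 76.2% of the cut-rate bases lay at the consensus sites.

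The 37 distal sites were searched for 17 motifs in their central 150 bases on both strands. RUNX (TGTGGT) was found in 11 (29.7%, against 19.7% of all distal consensus sites) and core ETS (CAGGAAG) in 8 (21.6%, against 13.4%). AP-1 (TGANTCA), the motif of activation-induced factors, was found in 4 (10.8%, against 5.02%), and TCF7/LEF1 (CTTTGAA or CTTTGAT), the motif of factors of naive T cells, in 0 (5.92%). Ikaros was found in 2 (5.41%, against 13.1%), KLF/SP in 2 (5.41%, against 10.4%) and E protein and ZEB in 6 (16.2%, against 17.7%). NFY was found in 4 (10.8%, against 4.63%), GATA in 3 (8.11%, against 4.8%) and IRF in 3 (8.11%, against 4.57%). FOXO was found in 2 (5.41%, against 1.95%), STAT in 2 (5.41%, against 4.12%) and MYB in 1 (2.7%, against 2.35%). ETS (CCGGAAGT), SMAD and CREB were found in 0. CTCF was found in 4 (10.8%, against 15.9%): Itgb2 +36619, Itgb2 -20411, Itgae +78818 and Itga6 +25943, each under a footprint of at least 2 libraries. With up to 1 mismatch CTCF was found in 10 of the 37, against 41.5% of all distal consensus sites, and these included the Itga4 +10405 and Itgb7 -7447 sites. RUNX lay under such a footprint in 3 sites: Itgal +46176, Itgae -6082 and Itga1 +137503. The Itga1 site also held AP-1 under such a footprint. A match is a description of letters, and no match says only that these letters are not in the window.

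Of the 16 other integrin genes, 9 had a consensus promoter site (56.2%), near the 55.1% of all protein-coding genes. The highest were Itga2b, the platelet integrin alpha chain, at 1.42, Itga9 at 0.763 and Itgb3, the beta chain that pairs with Itga2b and Itgav, at 0.761. The leukocyte genes Itgam and Itgax, partners of Itgb2 on myeloid cells, measured 0.244, 0.206 and 0.172 in replicates 1 to 3 for Itgam, and 0.116 in replicate 1 only for Itgax. Neither had a peak in replicate 4. Itga7, Itga11, Itgad and Itgb6 were called in none of the libraries, that is 4 of the 16, against 39.2% of all protein-coding genes.

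Of the 24 genes that regulate integrin activation, in either direction, or link integrins to actin, 21 had a consensus promoter site (87.5%, against 55.1% of all protein-coding genes). Of these, 16 were called in all 4 libraries, with a median relative height of 1.69. The same median was 1.56 over the 10081 genes called in all 4 (quartiles 0.976 and 2.27). It was 0.638 over the 7 members called in all 4. It was 0.651 over 6 other integrins and 0.761 over 6 counter-receptor and ligand genes. The highest of the 24 was Cyth1, a guanine exchange factor that binds the Itgb2 tail, at 3.71. Next came Stk4, a kinase of the pathway that activates LFA-1, at 3.52, and Sharpin, an inhibitor of integrin activation, at 3.22. Talin (Tln1), which binds beta tails, measured 1.79, 1.35, 2.21 and 2.28, and kindlin-3 (Fermt3), its blood cell partner, 0.889, 0.745, 0.704 and 0.702. The kindlins of other tissues, Fermt1 and Fermt2, were called in none of the libraries, that is 2 of the 24, against 39.2% of all protein-coding genes.

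Of the 16 counter-receptor and ligand genes, 9 had a consensus promoter site (56.2%), also near the 55.1% of all protein-coding genes. Icam1 and Icam2, ligands of LFA-1, measured 1.01 and 0.994 on average, and Col1a1, a collagen chain, 1.19. Vcam1, the ligand of Itga4 with Itgb1, and Vtn, Lama1, Col4a1 and Spp1 were called in none. These are 5 of the 16, against 39.2% of all protein-coding genes. Cdh1, which encodes E-cadherin, measured 0.213, 0.196 and 0.261 in replicates 1 to 3. Madcam1, the ligand of Itga4 with Itgb7, measured 0.738, 0.771 and 0.605 in the same libraries.

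The protein-coding genes outside the 10 whose promoter heights were most like those of Itgal over the 4 libraries were Gramd1b, Gprin3 and Vangl2, with summed absolute log2 differences of 0.232, 0.250 and 0.280. Itgb7 was not called in all 4 libraries and has no such list.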

How the data were processed

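DNase-seq of 4 libraries of 1 group was analysed from the deposited files, all on mm10 per the labels. Which aligner, caller and cut-offs were used is not given in the sources used here. Each peak height that the authors deposited is a signal scaled to library depth: low heights were whole multiples of 1 step, within 0.05 of a step, for 100% of values in each library, and 1 step was taken to be 1 tag. Footprints were deposited with a p-value or q-value of 0.01 throughout, and cut-rate intervals with 1 such p-value each.

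Peaks of the longer lists were joined where they overlapped by at least 1 bp. A height is given only where a peak was called, and means cover those libraries; where a gene has several promoter sites, the highest of each library was taken. Gene models were GENCODE mouse release 21 on GRCm38, and 0 peaks lay outside its chromosome lengths. Neighbours in the order of promoter height were compared by an exact sign-flip permutation test. No counts were tested.

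The members, lists and rules were chosen with earlier results of these data known. All 10 members are named. At each, the highest promoter, up to 2 distal sites and the site with the most footprints were chosen by rule, and from each list the 3 highest genes and up to 3 called in none. Chosen after values were seen were Cd8a, Cd8b1, Cd4, the Itgal inner start, the Itga4 promoter sequence and further list genes. So were the CTCF motif (1 of the 17) and its mismatch form, the shared run of 19 letters, and the repeat share. Python 3.11.15, numpy 2.4.6, scipy 1.17.1, pysam 0.24.0, samtools 1.23.1 and matplotlib 3.10.9 were used, and the steps were tested on simulated data. Alternatives were other peak lists, consensus rules, windows, scalings and left-out libraries.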

Additional observations from a re-analysis of the deposited data

Results flagged for a closer look

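Of 49 groups of 4 library values looked at, 4 had 1 library far from the other 3 by Dixon's ratio, and chance flags about 1 in 20 such groups. In each of them the library that stood apart was replicate 4, the shallowest. The distal site of Itgb2 at +36619 measured 1.37 there, against 1.10 to 1.13 in the others. The Itga3 promoter, a laminin receptor gene of the list of other integrins, measured 0.842 there, against 0.411 to 0.471. At the consensus sites of the integrin loci, 35 footprints fell in replicate 4, against 202 to 234. Of the 69 sites, 30 were called there, against 68 to 69. The last counts are largely set by the rule, since a consensus site needs a peak in at least 3 of the 4 libraries.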

How the results depend on the processing

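The order with Itga4 highest and Itgav second held in all 13 settings that gave heights. It also held within each library in the main setting, so settings that rescale heights or leave out libraries could hardly change it. Members with a consensus promoter site numbered 9, or 7 with the shorter peak lists and with a call needed in all 4 libraries (Itgb7 and Itgae lost), 8 from the 5′ end of the gene only (Itga6 lost), and 6 when each library was held to its 20647 highest peaks (Itgb1 lost as well; chosen after seeing the data). That last setting gave 4 other integrin genes with a consensus promoter site and 33 consensus sites at the loci. Of all protein-coding genes, 55.1% had a consensus promoter site in the main setting and 45.9% had a promoter peak in all 4 libraries. The share of all genes was not computed for the other settings, so their counts have nothing to be read against. With a call needed in all 4 libraries, the loci held 29 sites, 34.5% of them distal, and 178 footprints. Locus windows of 5 and 100 kb gave 41 and 121 sites and 206 and 623 footprints. The median over the 10 members of the mean promoter height, with Itga1 at 0, was 0.561. It was 0.387 with the shorter lists, 1.73 with replicates 1 and 2 only, 1.79 over the median of all peaks and 2.42 for unscaled heights; leaving out each replicate gave 0.567 to 1.24. These are other scales, since the sites that set the scale change. Leaving out replicate 3 or 4, with 2 of the other 3 needed, raised the sites at the loci to 91 or 90. No paired analysis was possible because there is 1 group. Replicate 4, with a median of 57.0 tags at the shared sites against 291 to 525, limits what can be called at low heights.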
